A study of Mus musculus with 6 samples.

Results

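The genes described here make up the ATF4 response together with the machinery that brings amino acids into the cell and loads them onto tRNA. The cultures are labelled as mouse CD4+ T cells. Of 38 genes chosen by name, 36 were measured among the 19937 genes tested. They comprise 8 transcription factors and stress genes of the ATF4 response, 9 of 10 enzymes of serine, one-carbon, proline and asparagine synthesis, 8 amino acid transporters and 11 of 12 cytosolic tRNA synthetases. The probe set of Aars, the alanyl-tRNA synthetase gene, is also annotated to a neighbouring gene, and Pycr1, a gene of proline synthesis, was not matched to a probe set, so neither has a value here. Mars, the methionyl-tRNA synthetase gene, is listed under its newer symbol Mars1.

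All 6 samples were labelled as naive CD4+ T cells of B6 mouse spleen. The cells were activated with antibodies to CD3 and CD28 for 2 days and rested overnight. They were then coated with antibody for 20 min and cross-linked with goat anti-hamster antibody for 8 h. In 4 cultures the coating antibody was anti-CD3 alone, and in 2 it was anti-CD3 together with anti-ICOS, an antibody to an inducible costimulatory receptor of the CD28 family. The RNA of each culture, called a biological replicate, was hybridised to its own array (Affymetrix Mouse Gene 1.0 ST). No genotype, age or sex is given, and every group shares the first activation through CD3 and CD28. Levels are log2(intensity + 16), where the added 16 shrinks the differences of dim genes, and a difference is the anti-ICOS mean less the anti-CD3 mean unless another reference is named. Levels of different genes come from different probe sets and are not compared.

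ATF4 is a transcription factor whose protein is made when the translation factor eIF2 is phosphorylated, as happens when amino acids run short, and it is also raised by mTORC1 signalling in growing cells. It binds a composite DNA element with a C/EBP partner and switches on genes for amino acid transporters, for synthesis of serine, asparagine and proline, and for tRNA synthetases, the enzymes that join each amino acid to its tRNA. An activated T cell depends on this supply: the SLC7A5 and SLC3A2 proteins pair to import leucine and other large neutral amino acids, and the mitochondrial folate pathway turns serine into one-carbon units for nucleotide synthesis.

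The core of the element that ATF4 binds with a C/EBP partner, TGATGNAA on either strand, was looked for in RefSeq promoters. The windows (mouse build GRCm38.p6) ran from 250 bases before to 50 after the gene start. A promoter was given for 31 of the 38 genes, and 11 of them (35.5%) held the core in at least 1 window, against 4.51% of the 27025 genes with a promoter. By role these were 3 of 8 stress genes, 2 of 10 enzymes, 1 of 5 transporters and 5 of 8 synthetases. The match is given for 10 of these genes with its flanks, read along the strand that carries TGATGNAA, with the core in capitals, and the strand given is that of the printed sequence:
Atf3 (chr1:191183422-191183457, + strand): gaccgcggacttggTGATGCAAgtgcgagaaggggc
Chac1 (chr2:119351035-119351070, - strand): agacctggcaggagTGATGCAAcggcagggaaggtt
Trib3 (chr2:152344025-152344060, + strand): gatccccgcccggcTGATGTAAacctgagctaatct
Asns (chr6:7693211-7693246, - strand): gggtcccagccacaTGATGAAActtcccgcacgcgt
Pycr1 (chr11:120643830-120643865, - strand): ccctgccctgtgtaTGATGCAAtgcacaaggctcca
Slc1a4 (chr11:20332696-20332731, + strand): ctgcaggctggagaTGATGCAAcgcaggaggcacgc
Gars (chr6:55037957-55037992, - strand): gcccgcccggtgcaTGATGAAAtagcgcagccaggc
Iars (chr13:49682123-49682158, - strand): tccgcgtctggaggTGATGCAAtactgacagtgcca
Tars (chr15:11399652-11399687, + strand): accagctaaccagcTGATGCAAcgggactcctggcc
Yars (chr4:129189892-129189927, + strand): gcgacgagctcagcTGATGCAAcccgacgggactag

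The E-box CACGTG, a palindrome bound by MYC and related factors, was also searched on both strands, and 4 of the 31 genes (12.9%) held it, against 8.09% of genes with a promoter. Among them were Aldh18a1, Iars and Tars, and in Iars and Tars it did not overlap the ATF core. Full promoters are printed for Atf3, the stress factor with the largest difference below, and for Tars and Aldh18a1, where replicate 4 lay with the anti-ICOS arrays, with both motifs in capitals and each read along the gene's strand:
Atf3 (chr1:191183284-191183583, - strand): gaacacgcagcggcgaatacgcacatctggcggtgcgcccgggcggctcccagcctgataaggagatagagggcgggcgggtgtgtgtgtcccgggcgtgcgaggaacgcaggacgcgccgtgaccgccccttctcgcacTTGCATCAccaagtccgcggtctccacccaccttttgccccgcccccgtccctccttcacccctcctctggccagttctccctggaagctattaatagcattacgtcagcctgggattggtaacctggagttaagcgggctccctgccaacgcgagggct
Tars (chr15:11399609-11399908, - strand): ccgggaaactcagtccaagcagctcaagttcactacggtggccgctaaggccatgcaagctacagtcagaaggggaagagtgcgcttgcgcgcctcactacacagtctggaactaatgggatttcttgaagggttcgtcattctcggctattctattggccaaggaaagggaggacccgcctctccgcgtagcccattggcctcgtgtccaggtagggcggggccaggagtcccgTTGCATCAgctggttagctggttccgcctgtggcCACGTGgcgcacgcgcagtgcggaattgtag
Aldh18a1 (chr19:40588414-40588713, - strand): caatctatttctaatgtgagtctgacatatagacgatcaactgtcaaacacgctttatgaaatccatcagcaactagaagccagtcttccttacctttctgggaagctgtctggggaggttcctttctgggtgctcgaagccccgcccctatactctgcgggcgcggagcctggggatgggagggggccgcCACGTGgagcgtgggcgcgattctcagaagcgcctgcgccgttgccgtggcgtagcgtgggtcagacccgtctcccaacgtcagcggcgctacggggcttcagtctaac

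**Figure D1:**
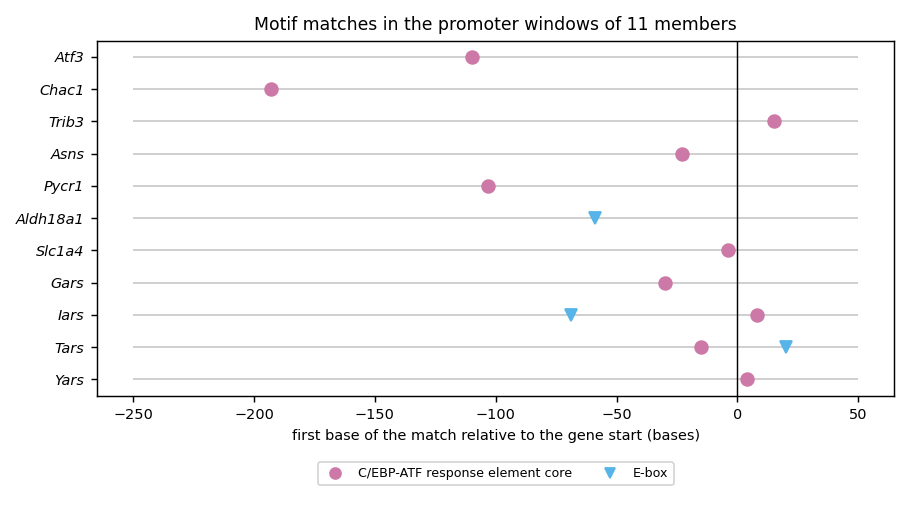
Positions of 10 matches to the C/EBP-ATF core (circles) and of 3 E-boxes (triangles) in the promoter windows of 11 genes, as distance in bases of the first base of each match from the gene start. Most of the C/EBP-ATF matches lie close to the gene start, and those of Atf3, Chac1 and Pycr1 lie over 100 bases upstream.

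Anti-CD3 replicate 4 stands apart from replicates 1 to 3 over the whole array, so its values are given apart. Replicate 4 and both anti-ICOS arrays lay on the same side of replicates 1 to 3, outside their range, in 25.9% of all genes upward and in 30.4% downward. The median intensity of an array was 109 to 114. The summed intensity of 7 T cell markers, Cd3e and Cd4 among them, was 24331 to 27957 with anti-CD3 and 22706 to 23514 with anti-ICOS. The summed intensity of 5 B cell markers was also 13960 to 17474 over the 6 arrays, and that of the 2 CD8 genes 3859 to 4704. The purity of these cultures is not known. Of 10 dendritic cell markers, 2 passed the limma test as higher, Flt3 and Fscn1, against 0.271% of all genes. On both anti-ICOS arrays 7 of the 10 were brighter than on any other, against 8.51% of all genes. The summed intensity of the 10 was 1141 to 1177 in anti-CD3 replicates 1 to 3, 1589 in replicate 4 and 3824 to 3881 with anti-ICOS. Among them Xcr1, Clec9a and Cd209a stayed under 100 on every array. The summed intensity of 8 monocyte and macrophage markers was 754 to 784 in replicates 1 to 3, 1232 in replicate 4 and 1258 to 1906 with anti-ICOS, with Csf1r, Cd14, Fcgr1 and Ms4a7 under 100 throughout. That of 6 NK cell markers was 2391 to 2594, 3214 and 3094 to 3143 in the same order, with Ncr1, Klrb1c, Klre1 and Gzma under 100. For 6 mast cell and basophil markers it was 299 to 352 over the anti-CD3 arrays and 471 to 658 with anti-ICOS, and for 6 neutrophil markers 339 to 425 and 417 to 840. Without replicate 4, 6 of the 10 dendritic, 5 of the 8 monocyte and 5 of the 6 NK cell markers were higher by limma. So were 3 of the 5 B cell, 3 of the 6 mast cell and basophil and 2 of the 6 neutrophil markers. In this fit 17.1% of all genes were higher. Of the 7 T cell markers 4 were lower in it, against 12.7% of all genes, and neither CD8 gene passed. The part of these markers in the results was not tested. In RNA from whole cultures, a change in the share of a cell type and a change of RNA per cell cannot be told apart.

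With all 6 arrays weighted alike, none of the 36 genes passed the test. By limma with Benjamini-Hochberg adjustment over all genes, 0 were higher and 0 lower at an adjusted p under 0.05, against 0.271% of all genes, all of them higher. Before adjustment, 8 of the 36 had a p under 0.05 as higher and 1 as lower, against 6.24% and 5.57% of all genes. In 13 of the 36 the anti-ICOS arrays both exceeded every anti-CD3 array, against 8.51% of all genes, and in 1 both lay below, against 14.8%. The difference was above 0 in 29 of the 36, with a median of 0.152 (log2), against 42.3% of all genes and a median of -0.031. It was above 0 in 24 of the 36 without replicate 4, against 42.2% of all genes, in 27 with replicate 4 as the only reference, against 44.5%, and in 21 after quantile normalization, against 47.1%. In 4 of the 36 a single anti-CD3 array lay far from the other 3, against 8.69% of all genes.

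The call turned on replicate 4. Without it 17 of the 36 (47.2%) passed, 14 higher and 3 lower, against 17.1% of all genes higher and 12.7% lower, which makes 29.7% in either direction. With replicate 4 as the only reference 0 of the 36 passed, against 0.176% of all genes. With array quality weights, which gave replicate 4 a weight of 0.15 and replicate 1 one of 4.53, 18 of the 36 passed, 14 higher and 4 lower, against 22.8% of all genes higher and 24.4% lower, or 47.2% in either direction. The share of the 36 genes was thus near that of all genes with weights, and above it without replicate 4.

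**Figure D2:**
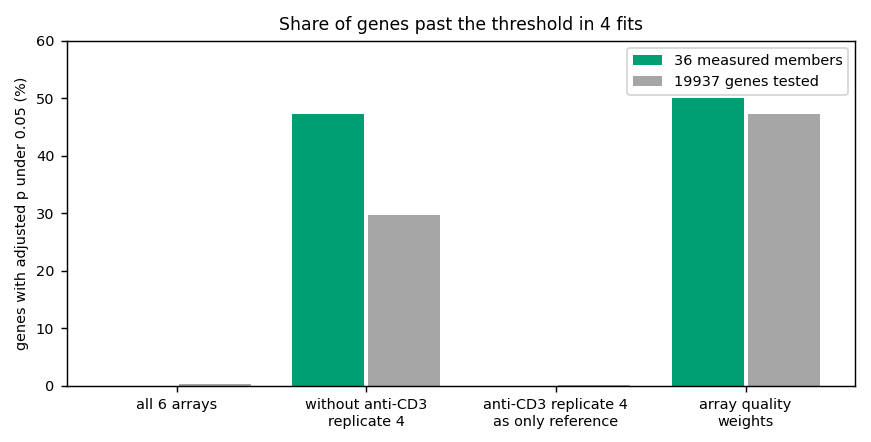
Percent of genes with an adjusted p under 0.05 by limma in 4 fits, for the 36 measured genes of the ATF4, transport and tRNA charging set and for all 19937 genes tested. Without anti-CD3 replicate 4 the shares are 47.2% and 29.7%, with array quality weights 18 of the 36 genes passed against 47.2% of all genes, and with all 6 arrays or with replicate 4 as the only reference no gene of the set passed.

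The amino acid transporters had the highest median of the 4 role groups. All 8 differences were above 0 and ranged from 0.06 to 0.42, with a median of 0.302. In 6 of the 8 both anti-ICOS arrays exceeded the whole anti-CD3 group, against 8.51% of all genes. Of the 8, 0 passed the limma test with all 6 arrays, 5 were higher at an unadjusted p under 0.05, against 6.24% of all genes, and 6 were higher without replicate 4, against 17.1%.

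Slc3a2, which encodes the heavy chain CD98 that carries several transporters to the cell surface, read 11.18, 11.17 and 11.09 in anti-CD3 replicates 1 to 3, 11.21 in replicate 4, and 11.67 and 11.51 with anti-ICOS. Replicate 4 was close to the rest of its group and the anti-ICOS arrays were above all of it. The difference was 0.42 ± 0.0785 (SE, limma adjusted p = 0.148), from a mean of 11.16 ± 0.052 (SD, n = 4) to 11.59 ± 0.11 (SD, n = 2). Without replicate 4 it was 0.44 ± 0.0741 (adjusted p = 0.00475) and against replicate 4 alone 0.38 ± 0.0994, so the size of the difference hardly depended on replicate 4.

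Slc7a5, the leucine-importing light chain LAT1 that pairs with CD98, read 9.80, 9.84 and 9.79 in replicates 1 to 3, 9.93 in replicate 4, and 10.23 and 10.10 with anti-ICOS. The arrays thus stood in 3 steps, with replicate 4 between the others. The difference was 0.33 ± 0.0782 (limma adjusted p = 0.310), and 0.36 ± 0.0674 without replicate 4 (adjusted p = 0.00748). Slc7a6, another light chain of CD98 that exchanges basic and neutral amino acids, read 9.20, 9.22 and 9.09 in replicates 1 to 3, 9.47 in replicate 4, and 9.60 on both anti-ICOS arrays. Here replicate 4 lay nearer to the anti-ICOS arrays than to its own group, and the difference of 0.35 ± 0.11 (limma adjusted p = 0.413) shrank to 0.12 ± 0.0898 against replicate 4 alone.

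Slc7a1, the importer of arginine and lysine, read 8.96, 8.85 and 8.94 in replicates 1 to 3, 9.19 in replicate 4, and 9.44 and 9.29 with anti-ICOS. The difference was 0.38 ± 0.11 (limma adjusted p = 0.413) with all arrays and 0.17 ± 0.0995 against replicate 4 alone, where replicate 4 lay nearer to the anti-ICOS arrays than the rest of its group did. Slc38a2, the sodium-coupled importer of small neutral amino acids that amino acid shortage induces, read 11.80, 11.82 and 11.70 in replicates 1 to 3, 11.89 in replicate 4, and 12.06 and 12.10 with anti-ICOS. Its groups did not overlap, with a difference of 0.28 ± 0.077 (limma adjusted p = 0.40). Its relative Slc38a1 read 10.71, 10.71 and 10.69 in replicates 1 to 3, 11.04 in replicate 4, and 11.01 and 11.00 with anti-ICOS. Replicate 4 was the highest array for this gene, and against it alone the difference was -0.038 ± 0.0801. The dimmer probe set of Slc38a1 showed the same order, with replicate 4 higher than replicates 1 to 3 by 0.76 and a difference between the groups of 0.39.

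The glutamine importer Slc1a5 read 10.61, 10.65, 10.58 and 10.70 with anti-CD3 and 10.71 and 10.74 with anti-ICOS. These groups did not overlap, but the difference was only 0.087 ± 0.0694 (limma adjusted p = 0.511). Of the 5 transporters with a promoter to search, only Slc1a4 held the ATF core, and Slc7a5, Slc1a5 and Slc38a1 had none to search. Slc1a4, a transporter of alanine, serine and cysteine, read 6.60, 6.77, 6.57 and 6.35 with anti-CD3 and 6.68 and 6.58 with anti-ICOS. Its groups overlapped and replicate 4 was the lowest array.

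**Figure D3:**
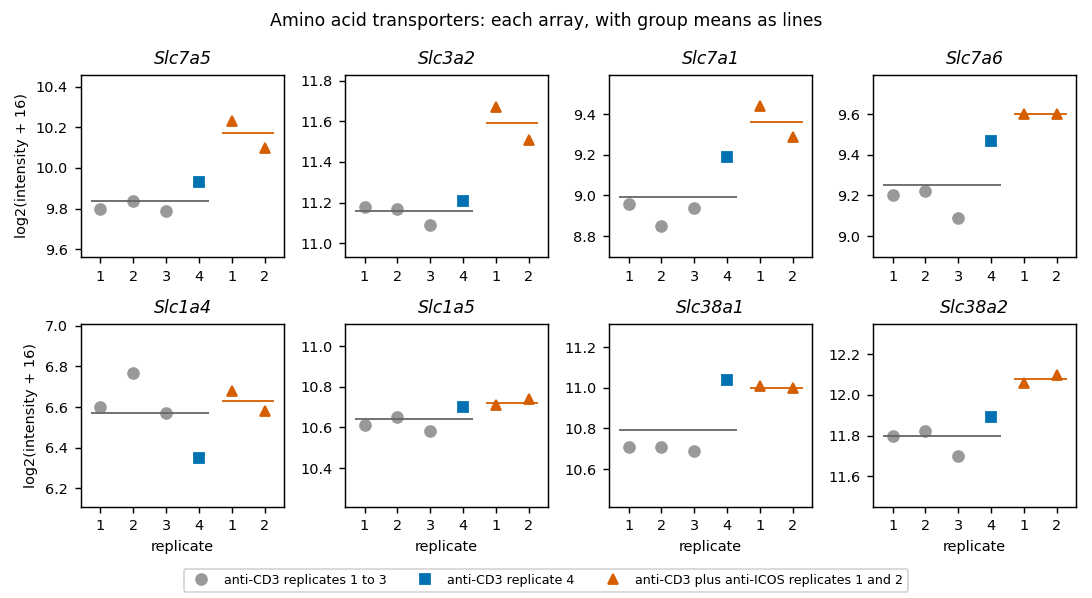
Log2(intensity + 16) of the 8 amino acid transporter genes on each array (grey circles, anti-CD3 replicates 1 to 3; blue square, anti-CD3 replicate 4; orange triangles, anti-CD3 plus anti-ICOS), with horizontal lines at the 2 group means and the same span on every vertical axis. Slc3a2 shows replicate 4 with its own group, at 11.21 against 11.67 and 11.51, while for Slc38a1 replicate 4 at 11.04 lies with the anti-ICOS arrays.

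Among the ATF4 and stress factors, Atf3 had the largest difference and Trib3 lay lower. The 8 genes had a median difference of 0.157, between -0.36 and 0.54. The anti-ICOS arrays both exceeded every anti-CD3 array for 3 of the 8, Atf3, Atf4 and Cebpb, against 8.51% of all genes. None passed the limma test with all 6 arrays, and 1 of the 8 was higher at an unadjusted p under 0.05, against 6.24% of all genes. Without replicate 4, Atf3 and Ddit3 were higher, against 17.1% of all genes, and Trib3 lower, against 12.7%.

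Atf3, a stress-induced repressor and activator of the ATF family, read 7.18, 7.24, 7.10 and 7.12 with anti-CD3 and 7.89 and 7.51 with anti-ICOS. All 4 anti-CD3 arrays lay within a narrow range here, replicate 4 included. The difference was 0.54 ± 0.11 (limma adjusted p = 0.216), 0.52 ± 0.11 without replicate 4 (adjusted p = 0.0117) and 0.58 ± 0.15 against replicate 4 alone. Atf4 itself read 8.20, 8.20, 7.89 and 8.17 with anti-CD3 and 8.46 and 8.24 with anti-ICOS, where the second anti-ICOS array was barely above the anti-CD3 range. Its difference was 0.23 ± 0.12 (limma adjusted p = 0.423), and its transcript does not show the translational control of its protein, which arrays cannot read.

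Ddit3, which encodes the stress factor CHOP, read 8.23, 8.29 and 8.30 in replicates 1 to 3, 8.55 in replicate 4, and 8.68 and 8.45 with anti-ICOS. Replicate 4 lay between the anti-ICOS arrays, and against it alone the difference was 0.016 ± 0.11. Trib3, a pseudokinase that restrains ATF4 and is itself an ATF4 target, read 8.21, 8.30 and 8.31 in replicates 1 to 3, 7.78 in replicate 4, and 7.79 on both anti-ICOS arrays. Replicate 4 and the anti-ICOS arrays were alike, with a difference of -0.36 ± 0.15 (limma adjusted p = 0.420) that was -0.48 ± 0.065 without replicate 4 (adjusted p = 0.00181) and 0.010 ± 0.0872 against it alone.

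Cebpb, a C/EBP partner of ATF4, differed by 0.17 ± 0.0803 and Sesn2, a leucine sensor that restrains mTORC1, by 0.14 ± 0.10. Atf5, a close relative of ATF4, differed by 0.030 ± 0.0986 and Chac1, which degrades glutathione and is a strong ATF4 target, by 0.035 ± 0.099. For Atf5 and Chac1 the groups overlapped, and limma adjusted p was 0.874 and 0.852.

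**Figure D4:**
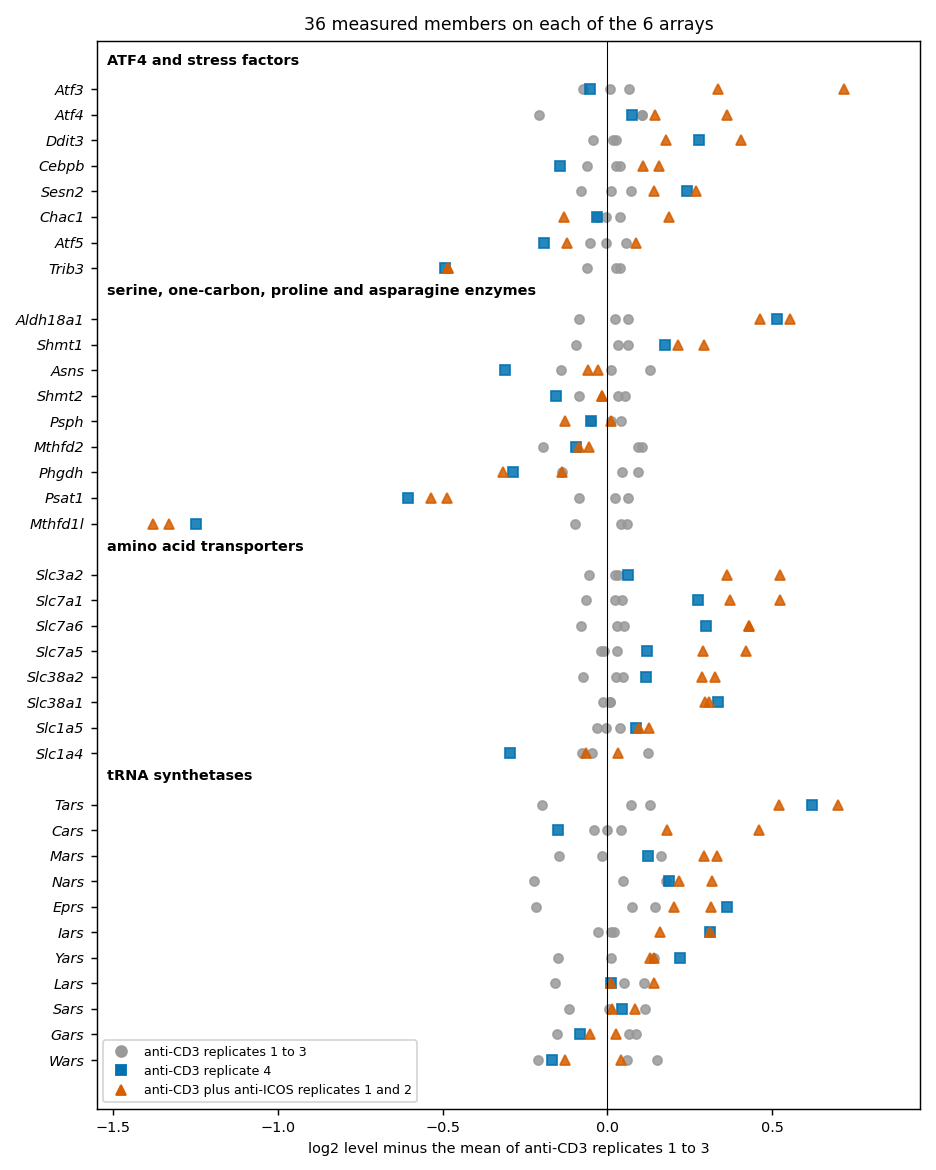
Log2 level of each of the 36 measured genes minus the mean of anti-CD3 replicates 1 to 3 (grey circles), for anti-CD3 replicate 4 (blue squares) and both anti-CD3 plus anti-ICOS arrays (orange triangles), by role group. For Mthfd1l, Psat1, Trib3, Aldh18a1 and Tars replicate 4 lies with the anti-ICOS arrays, while for Atf3, Slc3a2 and Cars it lies apart from them.

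The enzymes of serine, one-carbon, proline and asparagine synthesis lay in both directions, and in Mthfd1l, Psat1 and Aldh18a1 replicate 4 lay with the anti-ICOS arrays. The 9 measured genes had a median difference of -0.044, from -1.04 to 0.38. None passed the limma test with all 6 arrays, and 1 of the 9 was lower at an unadjusted p under 0.05, against 5.57% of all genes. Without replicate 4, Shmt1 and Aldh18a1 were higher, against 17.1% of all genes, and Psat1 and Mthfd1l lower, against 12.7%.

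Mthfd1l, the mitochondrial enzyme that releases formate from the folate pathway, had the largest difference of all 36 genes. It read 9.91, 9.93 and 9.77 in replicates 1 to 3, 8.62 in replicate 4, and 8.54 and 8.49 with anti-ICOS. Replicate 4 lay apart from its group and just above the anti-ICOS arrays. The difference was -1.04 ± 0.36 (limma adjusted p = 0.415), -1.36 ± 0.0731 without replicate 4 (adjusted p = 5.8e-05), and -0.10 ± 0.098 against replicate 4 alone. The neighbouring step of the same pathway did not share this: Mthfd2 read 9.86, 9.87, 9.57 and 9.67 with anti-CD3 and 9.71 and 9.68 with anti-ICOS, a difference of -0.044 ± 0.10 with overlapping groups.

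Psat1, the aminotransferase of serine synthesis, read 9.76, 9.72 and 9.61 in replicates 1 to 3, 9.09 in replicate 4, and 9.21 and 9.16 with anti-ICOS. Replicate 4 was the lowest array, and the difference was -0.36 ± 0.19 (limma adjusted p = 0.425) with all arrays, -0.51 ± 0.0703 without replicate 4 (adjusted p = 0.00197) and 0.098 ± 0.0944 against it alone. For Phgdh, which opens that pathway, replicate 4 and the anti-ICOS mean also lay below the mean of replicates 1 to 3, but by less. It read 9.29, 9.34, 9.11 and 8.96 with anti-CD3 and 8.93 and 9.11 with anti-ICOS. The second anti-ICOS array thus read the same as anti-CD3 replicate 3. Its difference was -0.16 ± 0.12 with all arrays and -0.23 ± 0.0913 without replicate 4 (adjusted p = 0.0953), past the threshold in neither fit. Psph, the phosphatase of the last step, differed by -0.044 ± 0.0747.

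Aldh18a1, which makes the precursor of proline and ornithine, went the other way. It read 9.57, 9.53 and 9.42 in replicates 1 to 3, 10.02 in replicate 4, and 10.06 and 9.97 with anti-ICOS. Replicate 4 and the anti-ICOS arrays lay together above the others. The difference was 0.38 ± 0.16 (limma adjusted p = 0.420), 0.51 ± 0.0717 without replicate 4 (adjusted p = 0.00224) and -0.0024 ± 0.0963 against it alone. Shmt1, the cytosolic enzyme that moves one-carbon units between serine and glycine, differed by 0.21 ± 0.0914 (limma adjusted p = 0.422), and its mitochondrial form Shmt2 by 0.019 ± 0.0834. Asns, the asparagine synthetase gene and a known ATF4 target, read 8.23, 8.35, 8.08 and 7.91 with anti-CD3 and 8.16 and 8.19 with anti-ICOS. Its groups overlapped, with a difference of 0.029 ± 0.12 (limma adjusted p = 0.901).

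The tRNA synthetases had a median difference of 0.160 over the 11 measured genes, of which 6 lay at 0.16 or above and 5 at 0.077 or below. Differences ranged from -0.0016 for Wars to 0.46 for Tars. None passed the limma test with all 6 arrays, and 2 of the 11 were higher at an unadjusted p under 0.05, against 6.24% of all genes. Without replicate 4, Tars, Cars, Mars and Iars were higher, 4 of the 11, against 17.1% of all genes. In anti-CD3 replicate 3 the median of these genes lay 0.15 below the mean of replicates 1 to 3, so the spread within replicates 1 to 3 was wider here than for the transporters. The median difference was 0.063 without replicate 3, 0.086 without anti-ICOS replicate 1, 0.088 after quantile normalization and 0.238 without replicate 4.

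Tars, the threonyl-tRNA synthetase gene, read 8.19, 8.13 and 7.86 in replicates 1 to 3, 8.68 in replicate 4, and 8.76 and 8.58 with anti-ICOS. Replicate 4 lay between the anti-ICOS arrays. The difference was 0.46 ± 0.21 (limma adjusted p = 0.423), 0.61 ± 0.11 without replicate 4 (adjusted p = 0.00647) and -0.0086 ± 0.15 against it alone. Cars, the cysteinyl-tRNA synthetase gene, behaved otherwise, at 8.02, 7.98, 8.06 and 7.87 with anti-CD3 and 8.48 and 8.20 with anti-ICOS. Replicate 4 was the lowest array, the groups did not overlap, and the difference was 0.36 ± 0.10 (limma adjusted p = 0.411), with 0.47 ± 0.12 against replicate 4 alone.

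Mars, which charges the initiator tRNA among others, read 8.84, 9.02, 8.71 and 8.98 with anti-CD3 and 9.19 and 9.15 with anti-ICOS, a difference of 0.28 ± 0.10 (limma adjusted p = 0.416) without overlap. Iars, for isoleucine, has 2 probe sets. On the brighter it read 10.24, 10.25 and 10.20 in replicates 1 to 3, 10.54 in replicate 4, and 10.54 and 10.39 with anti-ICOS, a difference of 0.16 ± 0.11; on the dimmer the difference was 0.38. On both probe sets replicate 4 lay above replicates 1 to 3, by 0.31 and 0.50. Nars, for asparagine, differed by 0.22 ± 0.12 and its groups did not overlap, and Eprs, the fused glutamyl- and prolyl-tRNA synthetase, differed by 0.17 ± 0.15. Yars, Lars, Sars, Gars and Wars, for tyrosine, leucine, serine, glycine and tryptophan, differed by 0.077, 0.073, 0.0411, 0.0105 and -0.0016, each with overlapping groups and with limma adjusted p between 0.669 and 0.995.

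The role groups can be set side by side on each array, as the median over their genes of the level after subtracting the average of replicates 1 to 3, the reference that replicate 4 and the anti-ICOS arrays share. For the transporters this median was 0.120 in replicate 4 and 0.363 and 0.311 with anti-ICOS. For the synthetases it was 0.123 in replicate 4 and 0.313 and 0.164 with anti-ICOS. For the stress factors it was -0.042 in replicate 4 and 0.231 and 0.140 with anti-ICOS, and for the enzymes -0.153, -0.062 and -0.032. Over all genes tested it was -0.036 in replicate 4 and -0.047 and -0.032 with anti-ICOS. The anti-ICOS arrays thus lay above replicate 4 in every role group, while replicate 4 lay above replicates 1 to 3 in 2 of the 4; these medians carry no test. With replicate 4 as the only reference the medians were 0.181 for the transporters, 0.113 for the stress factors, 0.069 for the synthetases and 0.057 for the enzymes, against -0.013 for all genes.

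**Figure D5:**
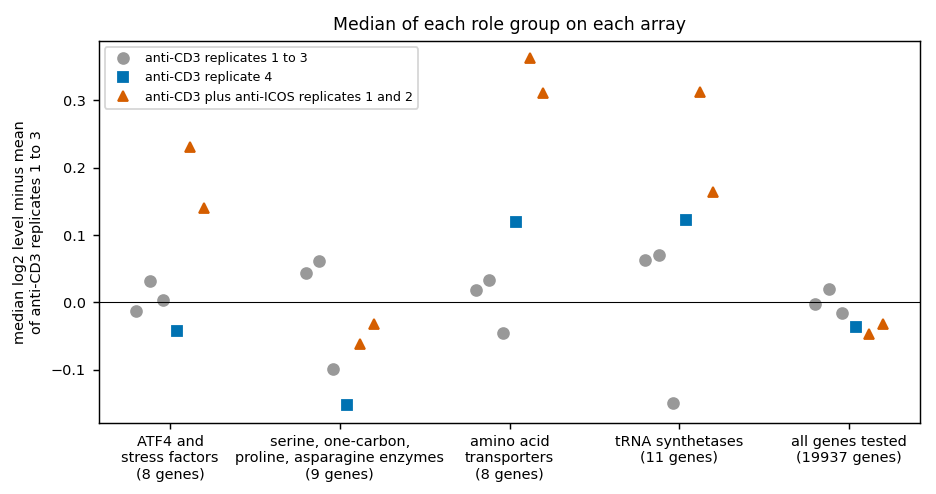
Median over the genes of each role group of the log2 level minus the mean of anti-CD3 replicates 1 to 3, on each of the 6 arrays, beside the same over all genes tested. The transporters stand highest on the anti-ICOS arrays, at 0.363 and 0.311, and all genes tested stay between -0.047 and 0.020.

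Other genes of the same pathways, taken from lists drawn up apart from the 38, also gave no call with all 6 arrays: 0 of 126 measured genes on 7 lists passed by limma. Their counts at an unadjusted p under 0.05 are to be read against 6.24% of all genes higher and 5.57% lower. Of 21 other ATF4 targets 5 were higher and 3 lower at that threshold, and the list median was -0.048. Ern1, an endoplasmic reticulum stress sensor, differed by 0.92 ± 0.18 (limma adjusted p = 0.174) and by 0.50 ± 0.11 against replicate 4 alone. Slc7a11, the cystine importer, differed by 1.10 ± 0.25 (adjusted p = 0.278) and by 0.58 ± 0.21 against replicate 4. Slc6a9, a glycine transporter, differed by 0.40 ± 0.0936 (adjusted p = 0.296) and by 0.58 ± 0.0854 against replicate 4. In all 3 the groups did not overlap, but these genes were picked for the smallest p of the list. Of the 21 genes, both anti-ICOS arrays exceeded every anti-CD3 array in 6, against 8.51% of all genes. They lay below in 2, against 14.8%. Without replicate 4, 7 of the 21 were higher, against 17.1% of all genes, and 6 lower, against 12.7%.

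Of 25 other amino acid transporters, 2 were higher and 2 lower at an unadjusted p under 0.05. The list median was -0.0040, where the 8 transporters described above had 0.302. Slc7a8, Slc7a9, Slc7a10, Slc1a1, Slc1a2, Slc1a3, Slc38a3, Slc38a4, Slc38a5 and Slc16a10 of this list were dim, between 5.65 and 6.98 on every array. Of the 8, only Slc1a4 was as dim, at 6.35 to 6.77. The constant added to the intensities shrinks the differences of dim genes. The median of this list is therefore not weighed directly against that of the 8. With a constant of 1 the median of the 8 was 0.305. The part of the constant in the median of this list was not tested. Slc7a7, another CD98 partner, read 6.91, 6.98, 6.80 and 7.07 with anti-CD3 and 7.52 and 7.68 with anti-ICOS, a difference of 0.66 ± 0.10 (limma adjusted p = 0.074) and the largest of this list. Against replicate 4 alone it was 0.53 ± 0.11. Slc43a1, a leucine carrier that works without CD98, differed by -0.40 ± 0.13 (adjusted p = 0.413) and by -0.10 ± 0.0822 against replicate 4. Slc36a1, a lysosomal amino acid transporter, differed by 0.23 ± 0.075 and by 0.14 ± 0.0855 against replicate 4.

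The kinases and factors upstream of ATF4 gave 3 of 15 higher and 0 lower at an unadjusted p under 0.05. Impact, an inhibitor of the amino acid sensing kinase GCN2, differed by 0.84 ± 0.23 and stood at 9.72 and 8.94 on the anti-ICOS arrays, against 8.78 in replicate 4 and 8.30 to 8.50 in replicates 1 to 3. Gcn1l1, the activator of GCN2, differed by 0.37 ± 0.12 and by 0.12 ± 0.0898 against replicate 4. Eif2ak2, the interferon-induced kinase PKR, differed by 0.51 ± 0.16 and by 0.21 ± 0.16 against replicate 4.

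Among 21 genes of amino acid sensing upstream of mTORC1, with Myc, 5 were higher and 0 lower at an unadjusted p under 0.05. Rragd, a Rag GTPase, differed by 0.66 ± 0.15 (limma adjusted p = 0.275) and by 0.31 ± 0.0913 against replicate 4. Myc, a transcription factor that drives amino acid transporter genes in T cells, read 9.85, 9.84 and 9.68 in replicates 1 to 3, 10.37 in replicate 4, and 10.47 and 10.50 with anti-ICOS. Its difference was 0.55 ± 0.18 (limma adjusted p = 0.413), and 0.12 ± 0.10 against replicate 4. Mtor, the kinase of mTORC1, read 8.65, 8.67 and 8.58 in replicates 1 to 3, 9.32 in replicate 4, and 9.40 and 9.34 with anti-ICOS. Its difference was 0.56 ± 0.20, and 0.0525 ± 0.0866 against replicate 4. For both genes replicate 4 lay with the anti-ICOS arrays.

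The other folate and amino acid enzymes gave 1 of 18 higher and 2 lower at an unadjusted p under 0.05, the higher count near the share of all genes. Tyms, the thymidylate synthase that uses one-carbon units for DNA synthesis, differed by -0.66 ± 0.22 and by -0.15 ± 0.15 against replicate 4. Gcsh, of the glycine cleavage system, differed by 0.30 ± 0.12 and by 0.12 ± 0.13 against replicate 4. Aldh1l1, a folate dehydrogenase, differed by -0.17 ± 0.0693 and by -0.20 ± 0.0877 against replicate 4.

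Of 10 other cytosolic synthetase and scaffold genes 1 was higher, Eef1e1, and the list median was -0.0050 against 0.160 for the 11 described above. Eef1e1, a scaffold protein of the synthetase complex, differed by 0.50 ± 0.19 but by 0.0669 ± 0.12 against replicate 4. Qars, for glutamine, differed by -0.15 ± 0.0886, and Kars, for lysine, by -0.0843 ± 0.0902. Of 16 mitochondrial synthetases 1 was higher and 1 lower at an unadjusted p under 0.05, near the shares of all genes, with a median of 0.139. Ears2, for glutamate, differed by 0.33 ± 0.11 and by 0.12 ± 0.0934 against replicate 4. Sars2, for serine, differed by -0.27 ± 0.11 and by -0.0512 ± 0.0954 against replicate 4. Tars2, for threonine, differed by 0.26 ± 0.12 and by -0.0063 ± 0.0885 against replicate 4.

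Set beside the sequences, the 9 measured genes whose promoter held the ATF core had a median difference of 0.060, from -0.36 for Trib3 to 0.54 for Atf3, and the 20 without it in the window had 0.169, from -1.04 to 0.42. The promoters of Slc3a2, Slc7a1, Slc7a6 and Slc38a2 held no match in these 300 bases, which says nothing about the rest of those genes. Over all genes tested with a promoter, the anti-ICOS arrays both exceeded every anti-CD3 array in 8.53% of 563 genes with the core and in 8.38% of 14998 without. Replicate 4 and both anti-ICOS arrays lay above replicates 1 to 3 in 20.1% of genes with the core and in 26.8% without. By the same measure it was 35.7% of 1481 genes with an E-box and 25.6% of 14080 without. Both anti-ICOS arrays exceeded every anti-CD3 array in 9.45% of genes with an E-box and in 8.27% without. In the set, replicate 4 and both anti-ICOS arrays lay above replicates 1 to 3 in 15 of the 36 genes, against 25.9% of all genes. Aldh18a1, Iars and Tars, the 3 measured genes of the set with an E-box, were among these 15. These matches are a description of the letters in the window.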

How the data were processed

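The authors deposited 1 intensity per probe set and array on a linear scale, and the submitters' processing notes name MAS5; their background correction and scaling were not given in the sources used here. Values ran from 7.23 to 22176 over 34760 probe sets. They were taken as log2(intensity + 16) with no further scaling. Of the probe sets 21640 have 1 gene symbol, 1321 several and 11799 none in the platform annotation; the brightest probe set with 1 symbol stood for a gene, which left 19937 genes.

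The 4 anti-CD3 and 2 anti-ICOS arrays entered 1 linear model per gene (lmFit, then eBayes, of limma 3.58.1 under R 4.3.3). Benjamini-Hochberg adjustment was over all genes, with 0.05 as the threshold. The procedure was tested on simulated data with the spread of anti-CD3 replicates 1 to 3. That test therefore does not cover an array set apart as replicate 4 is. P-values measure the spread between arrays, and so few arrays limit the precision. Replicate 4 as the only reference used a fit with 3 groups, where its spread is assumed to be that of the others. Every gene of the set is described, and of each further list the 3 genes with the smallest p, with Myc among them. The genes and lists were chosen with earlier results of these data known. Alternatives were quantile normalization, median centring, offsets of 1 and 64, a filter removing the dimmest 40% of genes, other probe set rules, a trended and robust prior, array weights, a replicate block, a threshold of 0.1 and leaving out each array. The promoter matches of 1 gene are not reported here.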

Additional observations from a re-analysis of the deposited data

Results flagged for a closer look

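In 4 of the 36 genes 1 anti-CD3 array lay far from the other 3, with a gap to its nearest neighbour, as a share of the group's range, beyond Dixon's limit for 4 values; chance alone marks about 1 in 20 groups, and among all genes tested 8.69% had such an array. Atf4 read 7.89 in anti-CD3 replicate 3, below the other arrays of its group. In Mthfd1l replicate 4 was low, at 8.62. In Slc38a1 replicate 4 was high, at 11.04, and in Iars it was high as well, at 10.54.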

How the results depend on the processing

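With all 6 arrays no gene of the set passed, and that held under quantile normalization, median centring, both offsets, the filter on dim genes (which left out Slc1a4), both other probe set rules, the trended and robust prior, a threshold of 0.1 and replicate 4 as the only reference. Array quality weights gave 14 higher and 4 lower. Leaving out 1 array at a time gave 0 to 14 higher and 0 to 3 lower, above 0 only without anti-CD3 replicate 4. The replicate block gave 13 higher and 4 lower, against 3389 and 3163 of all genes, with 1 residual degree of freedom. Anti-CD3 replicates 3 and 4 have no anti-ICOS array of their number, so the block takes them out of the difference. This setting too is thus without replicate 4. Deviations from the group mean correlated at -0.039 and 0.102 between same-numbered arrays. With 2 anti-ICOS arrays, whose deviations mirror each other, this check could not settle whether the numbers pair the arrays. The median of the stress factors was 0.077 under quantile normalization, 0.126 with the replicate block, 0.113 against replicate 4 alone and 0.115 to 0.204 with 1 array left out, and that of the transporters was 0.181 against replicate 4 alone.

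Some differences changed sign, none of them past the threshold with all arrays, and the cause was not tested. Among them are 4 of the larger ones, Tars (0.46), Aldh18a1 (0.38), Psat1 (-0.36) and Trib3 (-0.36), which lay between -0.0086 and 0.098 against replicate 4 alone. Under quantile normalization these were Atf5 (-0.038), Chac1 (-0.026), Shmt2 (-0.06), Asns (-0.071), Gars (-0.072), Sars (-0.014), Lars (-0.04) and Yars (-0.033). With array weights they were Shmt2 (-0.054), Asns (-0.058), Gars (-0.07) and Sars (-0.025). With the replicate block they were Shmt2 (-0.062), Asns (-0.12), Slc1a4 (-0.057), Gars (-0.084), Sars (-0.0048) and Lars (-0.0046). Against replicate 4 alone they were Trib3 (0.01), Sesn2 (-0.036), Phgdh (0.057), Psat1 (0.098), Mthfd2 (0.031), Aldh18a1 (-0.0024), Slc38a1 (-0.038), Wars (0.12), Eprs (-0.11), Iars (-0.074), Tars (-0.0086) and Yars (-0.084). With 1 array left out they were Atf5 (-0.076 to 0.14), Chac1 (-0.13 to 0.2), Psph (-0.11 to 0.024), Shmt2 (-0.019 to 0.049), Asns (-0.047 to 0.098), Slc1a4 (-0.016 to 0.13), Gars (-0.033 to 0.05) and Wars (-0.087 to 0.084).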
